A study of Homo sapiens with 12 samples.

Results

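The Schlafen genes form a family of 6 members in the human genome: SLFN5, SLFN11, SLFN12, SLFN12L, SLFN13 and SLFN14. They lie side by side on chromosome 17. Their levels were read from Affymetrix arrays of AsPC1 and BxPC3, established human lines of pancreatic ductal adenocarcinoma. Each parental line was set against its cisplatin-resistant derivative, called AsPC1-R or BxPC3-R, with 3 arrays per group and 12 in all. Each derivative is a single line. Cisplatin, a platinum drug that crosslinks DNA, was present in culture at 1.67 µM for AsPC1-R and 0.60 µM for BxPC3-R, and the final subculture of both before RNA was taken was free of the drug. The members were taken by gene name from the 18417 genes measured by a probe set with 1 gene symbol. The rule asked for the probe set with the highest mean over the 12 arrays, but each member had 1 such probe set, so no value entered that choice. SLFN5, however, was selected on a measured value, its difference between AsPC1-R and AsPC1, so its values on the AsPC1 and AsPC1-R arrays are given as a description, with no test.

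Schlafen proteins share a core that in several members can cut RNA, above all transfer RNA, and the longer ones also carry a helicase-like part. Many of the genes are switched on by type I interferon. SLFN11 is the member best known in cancer: it is drawn to stalled replication forks after DNA damage and blocks replication there, and cells that have lost it tolerate platinum drugs, topoisomerase inhibitors and PARP inhibitors. Its loss is often laid to promoter methylation and to the Polycomb methyltransferase EZH2. SLFN5 is an interferon-inducible nuclear protein, SLFN12 is the partner of the phosphodiesterase PDE3A in cells killed by certain small molecules, SLFN13 cuts transfer and ribosomal RNA, and SLFN14 is best known from platelets. A specific role of SLFN12L is less settled.

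Levels are log2 values, so a difference of 1 is a doubling of the signal. The median level of an array was 6.48 at the lowest and 6.65 at the highest, and precision is limited by how many arrays there are. No background reading was available. BxPC3 has lost the genes SMAD4 and CDKN2A, whose probe sets still read 4.14, 5.01 and 4.96 for SMAD4 and 6.33, 6.11 and 6.21 for CDKN2A on its replicates 1, 2 and 3, so the size of any difference that starts or ends in this range is uncertain. Whether the arrays within a group come from separate cultures is not in the labels. The p-values therefore speak only of the spread among these samples, and that may be technical. All 8 markers of ductal epithelium, such as the keratin genes KRT8 and KRT19, reached the median of all values (6.55) in every group. Of the 11 measured leukocyte markers, 3, 3, 2 and 2 reached it in AsPC1, AsPC1-R, BxPC3 and BxPC3-R, and of 6 megakaryocyte and erythroid markers 1, 0, 1 and 0. The mean of the leukocyte list lay between 6.39 and 6.61 on the AsPC1 arrays and between 6.47 and 6.49 on the AsPC1-R arrays, and the mean of the megakaryocyte and erythroid list between 5.74 and 6.05 and between 5.68 and 5.72. In BxPC3 and BxPC3-R the leukocyte mean spanned 5.59 to 5.90 and 5.45 to 5.62, and the other 5.75 to 5.96 and 5.50 to 5.73. The mean of 7 endothelial markers spanned 6.54 to 6.60 in BxPC3 and 5.58 to 5.90 over the other groups, with 4 of 7 reaching the median of all values in BxPC3, 2 in BxPC3-R and 1 in each AsPC1 line. The mean of 9 fibroblast markers spanned 5.66 to 5.87 in BxPC3 and 6.08 to 6.52 elsewhere. The part of these markers in the Schlafen levels was not tested. BxPC3 replicate 2 stood apart: of the 50 genes that AsPC1 exceeded BxPC3-R in by most, all 50 had their highest BxPC3 value on it, with a median excess of 0.83 over the other BxPC3 arrays. Schlafen gene values that passed the test and most list counts that use BxPC3 are therefore also given without this array, and for other named genes it is said where a call is lost.

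SLFN11 read higher in both BxPC3 lines than in both AsPC1 lines, where it lay at the bottom of the scale. BxPC3 read 7.65, 7.61 and 7.92, and BxPC3-R read 6.54, 6.65 and 7.13. AsPC1 read 4.19, 4.41 and 4.51, and AsPC1-R read 4.68, 4.62 and 4.59. Every BxPC3-R array therefore lay under every BxPC3 array, and every AsPC1 and AsPC1-R array lay far under both. The group means were 7.73 ± 0.17 in BxPC3, 6.77 ± 0.31 in BxPC3-R, 4.63 ± 0.04 in AsPC1-R and 4.37 ± 0.16 in AsPC1 (SD, n = 3), in that order from high to low.

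**Figure D1:**
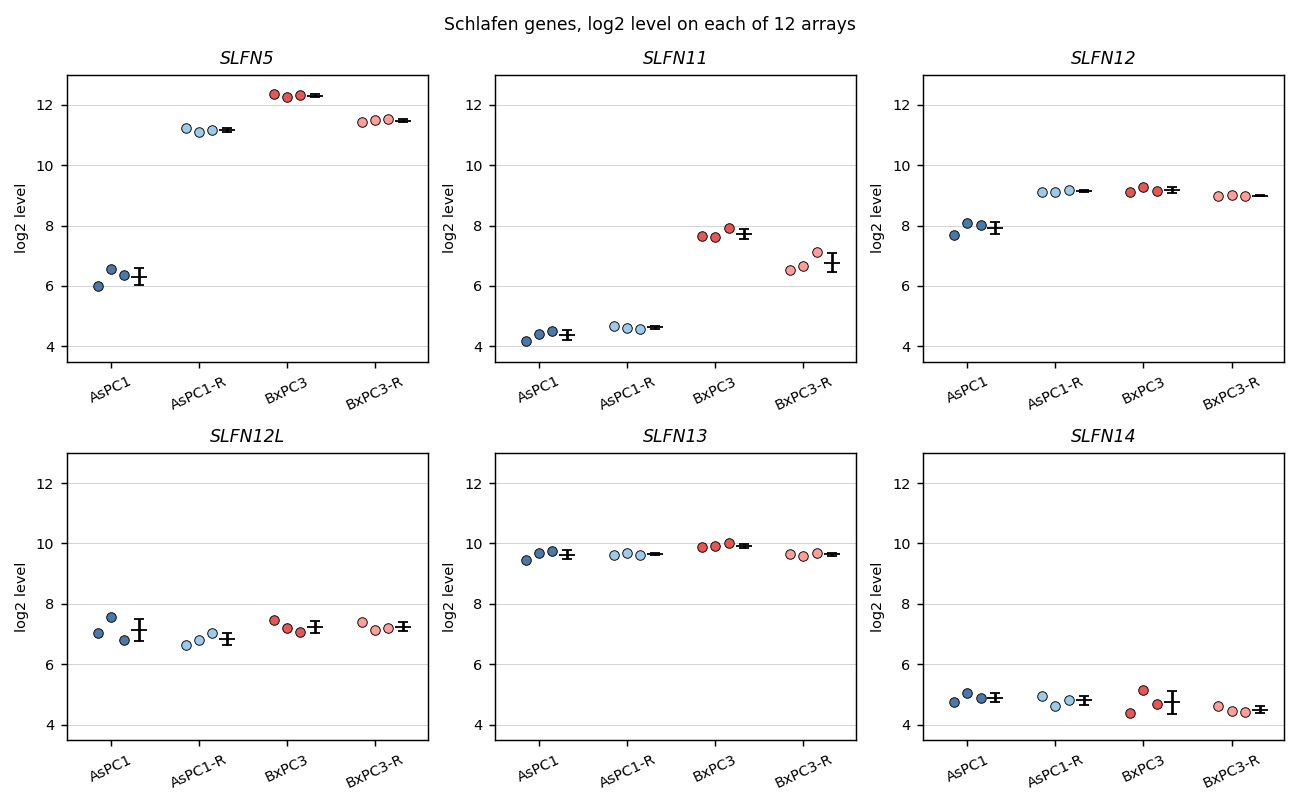
Log2 level of each Schlafen gene on each array (points, replicates 1 to 3 from left to right in each of the 4 groups), with the group mean and its SD (n = 3) as the bar to the right. SLFN5 is low in AsPC1 alone, SLFN11 is at 4.68 or less in both AsPC1 lines and at 6.54 or more in both BxPC3 lines, and SLFN13 stays between 9.45 and 10.00 on all arrays.

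SLFN11 fell in BxPC3-R. The change was -0.95 (log2; SE 0.14; 95% interval -1.26 to -0.65), a 1.94-fold drop, with an adjusted p of 0.000229 by limma, a linear model fitted over all genes. Without BxPC3 replicate 2 it was -1.01 (adjusted p = 0.000632). Against a null of a 1.5-fold change in place of no change, the adjusted p was 0.341. The lowest BxPC3-R reading, 6.54, lay just above the 6.33 of the deleted CDKN2A in BxPC3. CDKN2A was itself called lower in BxPC3-R, at -0.47, so the size of the SLFN11 fall is uncertain. In AsPC1-R the difference from AsPC1 was 0.26 (SE 0.14; 95% interval -0.05 to 0.56; adjusted p = 0.236 by limma), with both groups' arrays inside the range of the SMAD4 readings of BxPC3, where a fall might not be visible. The difference between the lines, that is the AsPC1-R change minus the BxPC3-R change, was 1.21 (SE 0.20; adjusted p = 0.000465, or 0.0713 against a 1.5-fold change), and 1.27 without BxPC3 replicate 2. With the AsPC1 levels this low, the value does not show that SLFN11 responded differently in AsPC1-R. Between the parental lines, SLFN11 was lower in AsPC1 by a log2 difference of -3.35 (SE 0.14; adjusted p = 9.87e-11), about 10.2-fold, or -3.41 without BxPC3 replicate 2. The size is uncertain, as AsPC1 is at the bottom of the scale.

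The sequence upstream of SLFN11 is shown because this gene had the widest gap between the lines among the members tested. It comes from RefSeq (GRCh38.p14, chr17:35373622-35373871, minus strand), which held an entry for SLFN11, SLFN12 and SLFN12L, and covers the 250 bases before the annotated start. Capitals mark matches, on either strand, to GAAANNGAAA (the interferon-stimulated response element, bound by complexes of IRF9 with STAT proteins and by other interferon regulatory factors), TTCNNNGAA (the gamma-activated sequence, bound by STAT dimers) or CCGGAA (the core bound by ETS factors such as FLI1).

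SLFN11 promoter: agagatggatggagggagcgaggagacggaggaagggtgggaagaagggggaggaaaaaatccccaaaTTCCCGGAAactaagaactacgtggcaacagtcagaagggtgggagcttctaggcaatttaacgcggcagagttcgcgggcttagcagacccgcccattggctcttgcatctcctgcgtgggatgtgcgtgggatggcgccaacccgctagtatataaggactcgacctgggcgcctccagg

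The window holds 1 match to the gamma-activated sequence, from base 182 to base 174 before the start, and the only match to the ETS core, from base 179 to base 174, lies inside it. It holds none to GAAANNGAAA. Over 35116 windows of this length in the table, 6.6% hold TTCNNNGAA, 14.5% hold CCGGAA and 3.0% hold GAAANNGAAA. There are 15 CpG dinucleotides in the window, against a median of 11 over all windows, and 57.6% of its bases are G or C. These are matches of letters only. Methylation was not measured.

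Genes listed as possible regulators of SLFN11 were then read on the same arrays, and whether each acts on SLFN11 in these lines was not tested. They are the Polycomb genes EZH2, EED and SUZ12, DNA methyltransferase and histone deacetylase genes, and ETS factor genes. FLI1, an ETS factor known to activate SLFN11, separated the lines. It read 9.99, 9.83 and 9.98 in BxPC3 and 9.58, 9.55 and 9.61 in BxPC3-R, against 4.48, 5.12 and 5.02 in AsPC1 and 4.77, 4.40 and 4.50 in AsPC1-R. Both BxPC3 lines thus lay far above both AsPC1 lines, and the difference of AsPC1 from BxPC3 was -5.06 (SE 0.14; adjusted p = 1.85e-12 by limma; -5.11 without BxPC3 replicate 2). Of the 13 genes in this list, 5 were lower and 1 higher in AsPC1 than in BxPC3 (5 calls without BxPC3 replicate 2). Over all genes 22.9% were lower and 27.7% higher. The ETS factor genes ETS1 and ETS2 were among the 5, at -1.54 (SE 0.08) and -1.31 (SE 0.08). FLI1 did not pass the test in either derivative: its change was -0.35 (SE 0.14; 95% interval -0.66 to -0.04; adjusted p = 0.110) in BxPC3-R and -0.31 (SE 0.14; adjusted p = 0.152) in AsPC1-R. Without AsPC1 replicate 1 both passed, at -0.35 (adjusted p = 0.0233) and -0.51 (adjusted p = 0.00695). Over the 12 arrays left out in turn, the BxPC3-R change spanned -0.405 to -0.322 (adjusted p = 0.0233 to 0.234 by limma). The AsPC1-R change spanned -0.511 to -0.19 (adjusted p = 0.00695 to 0.451). The BxPC3-R fall also passed limma's test with only the groups compared (adjusted p = 0.0112) and with array weights (adjusted p = 0.0116). FLI1 in both AsPC1 lines read near the SMAD4 readings of BxPC3. The size of its AsPC1-R change and of its gap between the parental lines is therefore uncertain.

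EZH2 rose in BxPC3-R and fell in AsPC1-R. It read 10.31, 10.44 and 10.47 in BxPC3 and 11.10, 11.15 and 11.17 in BxPC3-R, a change of 0.73 (SE 0.07; adjusted p = 1.04e-05 by limma). AsPC1 read 10.63, 10.60 and 10.65 and AsPC1-R 9.93, 10.05 and 9.95, a change of -0.65 (SE 0.07; adjusted p = 3.18e-05). The groups did not overlap in either pair. DNMT1, the maintenance DNA methyltransferase gene, rose by 0.55 (SE 0.09; adjusted p = 0.000337) and the histone deacetylase gene HDAC1 by 0.30 (SE 0.07; adjusted p = 0.00742) in BxPC3-R. The ETS factor gene ETS1 rose in AsPC1-R by 1.13 (SE 0.08; adjusted p = 2.85e-07), from 8.68 ± 0.07 to 9.81 ± 0.08 (SD, n = 3). ETS2 fell in BxPC3-R by 0.47 (SE 0.08; adjusted p = 0.000521). ETS1 was also called lower in BxPC3-R, at -0.25 (SE 0.08; adjusted p = 0.0417, but 0.146 without BxPC3 replicate 2). DNMT1 was called lower in AsPC1-R, at -0.26 (SE 0.09; adjusted p = 0.0489). With each of the 12 arrays left out in turn, that ETS1 call was lost 6 times and that DNMT1 call 9 times. The BxPC3-R calls of EZH2, DNMT1, HDAC1 and ETS2 held without BxPC3 replicate 2 (adjusted p = 6.27e-05, 0.000365, 0.0239 and 0.0024).

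Of the 13 genes of this list, 3 rose and 2 fell in AsPC1-R, where 20.3% of all genes tested changed, and 3 rose and 2 fell in BxPC3-R, where 20.8% did. The list's median change was -0.08 in AsPC1-R and 0.07 in BxPC3-R, against -0.05 and 0.02 over all genes. The AsPC1-R count was 2 without AsPC1-R replicate 1 or 2, and 3 without AsPC1 replicate 2, AsPC1-R replicate 3, BxPC3 replicate 3 or BxPC3-R replicate 2. The BxPC3-R count of 5 was 4 without BxPC3 replicate 2.

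**Figure D2:**
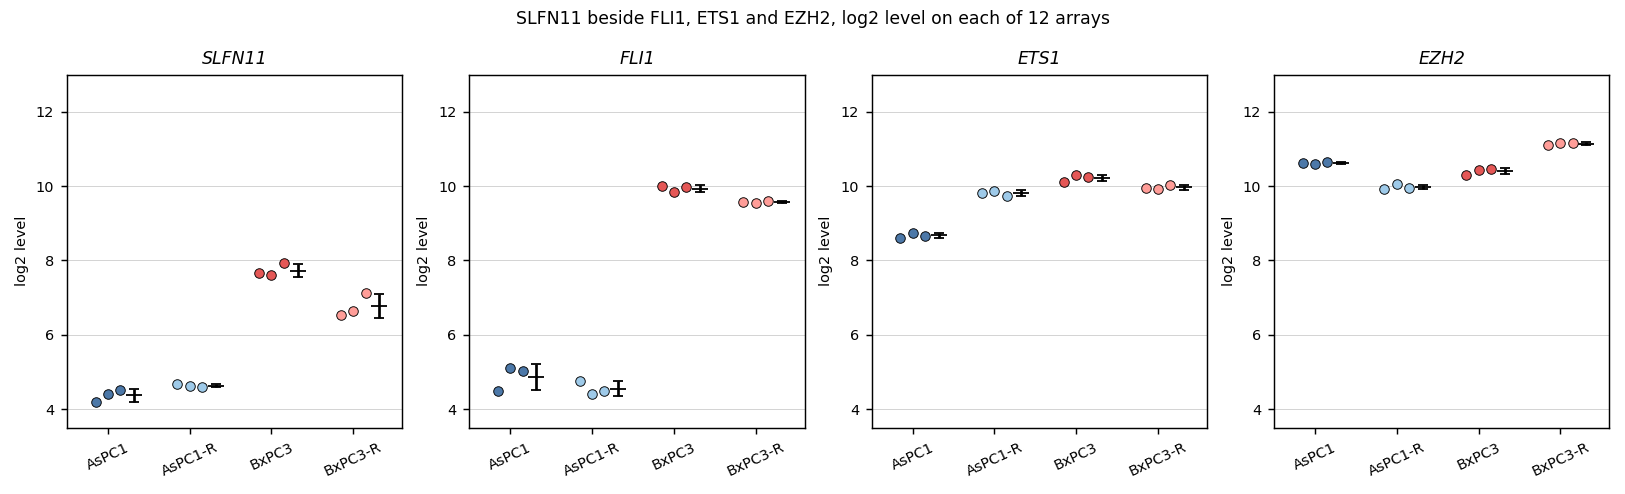
Log2 level of SLFN11, FLI1, ETS1 and EZH2 on each of the 12 arrays (points, replicates 1 to 3 from left to right in each group), with the group mean and its SD (n = 3). FLI1, like SLFN11, is far higher in both BxPC3 lines than in both AsPC1 lines, while EZH2 is highest in BxPC3-R and lowest in AsPC1-R.

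SLFN5 was low in AsPC1 and high in the other 3 lines. AsPC1 read 6.01, 6.56 and 6.36, and AsPC1-R read 11.24, 11.09 and 11.15. BxPC3 read 12.36, 12.24 and 12.31, and BxPC3-R read 11.43, 11.48 and 11.52. No group overlapped another. The order from high to low was BxPC3 at 12.30 ± 0.06, BxPC3-R at 11.48 ± 0.05, AsPC1-R at 11.16 ± 0.08 and AsPC1 at 6.31 ± 0.28 (mean ± SD, n = 3).

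The AsPC1-R level of SLFN5 exceeded that of AsPC1 by 4.85 (log2; SE 0.12), or 28.9-fold. In absolute size this ranked 2 among the 18417 genes. This is the value by which SLFN5 was chosen. Because AsPC1 lies near the 6.22 of the deleted CDKN2A in BxPC3, the size of the gap is uncertain. In BxPC3-R, on arrays that played no part in that choice, SLFN5 fell by 0.83 (SE 0.12; 95% interval -1.08 to -0.58), a 1.78-fold drop, with an adjusted p of 0.000136 by limma. Without BxPC3 replicate 2 the change was -0.86 (adjusted p = 0.000528). Against a null of a 1.5-fold change the adjusted p was 0.711. The changes in AsPC1-R and BxPC3-R ran in opposite directions on all arrays, and the gap between them was 5.68 (SE 0.16). Between the parental lines SLFN5 was lower in AsPC1 by a difference of -6.0 (SE 0.12).

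**Figure D3:**
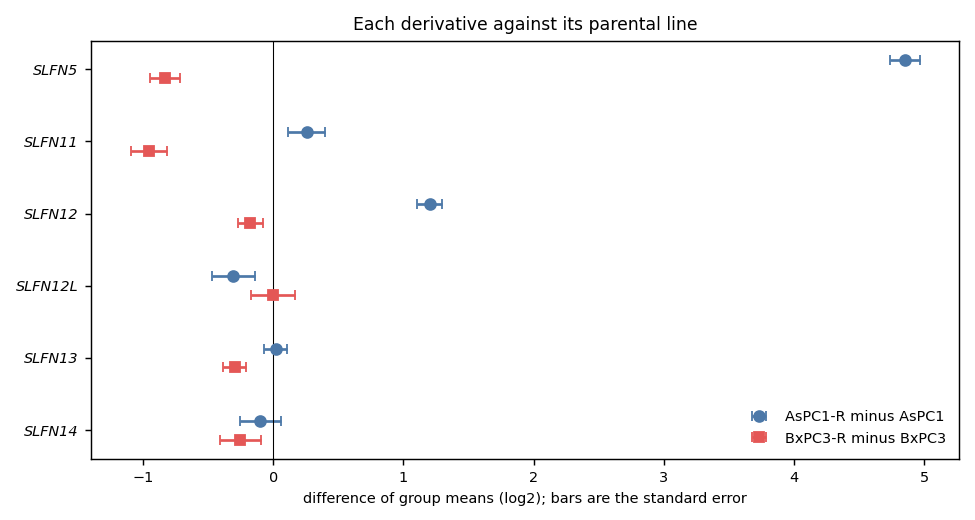
Difference between each derivative and its parental line for the 6 Schlafen genes, on the log2 scale, with its standard error from limma (3 arrays per group). SLFN5 lies at 4.85 in AsPC1-R and at -0.83 in BxPC3-R, SLFN12 at 1.20 and -0.17, and SLFN11 at 0.26 and -0.95.

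SLFN12 rose in AsPC1-R. AsPC1 read 7.70, 8.07 and 8.02, and AsPC1-R read 9.11, 9.12 and 9.17. All AsPC1-R arrays lay above all AsPC1 arrays. The change was 1.20 (SE 0.10; adjusted p = 8.23e-07 by limma), or 2.30-fold. BxPC3 read 9.10, 9.28 and 9.13 and BxPC3-R 8.99, 9.0 and 8.99, a difference of -0.17 (SE 0.10; 95% interval -0.38 to 0.03) that did not pass the test (adjusted p = 0.255, or 0.566 without BxPC3 replicate 2). From high to low the order was BxPC3 at 9.17 ± 0.10, AsPC1-R at 9.13 ± 0.04, BxPC3-R at 8.99 ± 0.01 and AsPC1 at 7.93 ± 0.20 (mean ± SD, n = 3), and the arrays of AsPC1-R and BxPC3 overlapped. The difference between the lines was 1.38 (SE 0.14; adjusted p = 5.61e-06), and AsPC1 lay under BxPC3 by a difference of -1.24 (SE 0.10; adjusted p = 9.77e-08). Without BxPC3 replicate 2 these were 1.32 (adjusted p = 2.38e-05) and -1.18 (adjusted p = 1.04e-06). Of the members tested, SLFN12 was the only one whose rise in AsPC1-R passed the test, 1 of 5 where 11.6% of all genes rose, 8.64% fell and 20.3% changed in either direction.

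Genes of proteins that bind or work with Schlafen proteins were read next. PDE3A, which binds SLFN12, read 5.24 ± 0.09, 5.13 ± 0.03, 5.15 ± 0.13 and 5.19 ± 0.07 (SD, n = 3) in AsPC1, AsPC1-R, BxPC3 and BxPC3-R, all in the range of the deleted genes. Its difference was -0.12 (SE 0.08; 95% interval -0.30 to 0.07) in AsPC1-R and 0.04 (SE 0.08; 95% interval -0.15 to 0.22) in BxPC3-R, and neither passed the test. PDE3B, a related phosphodiesterase gene, rose in AsPC1-R by 0.46 (SE 0.10; adjusted p = 0.00346 by limma). MAP3K20, which encodes the kinase ZAK that senses stalled ribosomes, fell in AsPC1-R by 0.44 (SE 0.07; adjusted p = 0.000438) and rose in BxPC3-R by 0.34 (SE 0.07; adjusted p = 0.00307). EIF2AK4, the gene of the GCN2 kinase that senses uncharged transfer RNA, rose in AsPC1-R by 0.34 (SE 0.08; adjusted p = 0.0108, but 0.0510 without AsPC1-R replicate 1). Of 10 genes in this list, 2 rose and 1 fell in AsPC1-R (2 calls without AsPC1-R replicate 1), where 20.3% of all genes changed. In BxPC3-R 2 rose, MAP3K20 and the GCN2 activator gene GCN1 at 0.30 (SE 0.10; adjusted p = 0.0446), where 20.8% of all genes changed. That count was 2 without BxPC3 replicate 2, and 1 without any AsPC1-R array, BxPC3 replicate 1 or 3, or any BxPC3-R array, with an adjusted p for GCN1 of 0.0516 to 0.175. The median change of the list was -0.02 in AsPC1-R and 0.13 in BxPC3-R.

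For comparison with SLFN11, the same 250 bases are shown for SLFN12, whose level rose in AsPC1-R, and for SLFN12L, whose level passed no test. They lie at chr17:35433175-35433424 and chr17:35537679-35537928 (GRCh38.p14, both minus strand), with capitals as above.

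SLFN12 promoter: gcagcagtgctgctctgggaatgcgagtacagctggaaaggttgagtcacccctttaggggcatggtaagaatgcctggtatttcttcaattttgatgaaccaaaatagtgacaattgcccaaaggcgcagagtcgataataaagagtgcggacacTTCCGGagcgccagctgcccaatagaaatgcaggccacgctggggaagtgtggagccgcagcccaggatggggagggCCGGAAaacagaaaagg

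SLFN12L promoter: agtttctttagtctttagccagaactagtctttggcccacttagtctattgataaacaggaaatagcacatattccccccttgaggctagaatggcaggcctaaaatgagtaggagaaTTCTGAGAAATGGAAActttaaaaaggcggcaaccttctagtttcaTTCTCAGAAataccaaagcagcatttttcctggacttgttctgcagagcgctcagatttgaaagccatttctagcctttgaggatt

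The SLFN12 window holds 2 matches to CCGGAA and none to the interferon motifs. The SLFN12L window holds 1 match to GAAANNGAAA and 2 to TTCNNNGAA, of which 1 overlaps the first, and none to CCGGAA. It has 2 CpG dinucleotides and the SLFN12 window has 9. The letters of the interferon-stimulated response element were found in the SLFN12L window and not in the SLFN12 window. Only 1 window per gene was read, and a link between these letters and the levels was not tested. A missing match says only that these letters are not in this window.

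SLFN13, the gene of a nuclease for transfer and ribosomal RNA, differed little between the lines. It read 9.45, 9.69 and 9.76 in AsPC1, 9.63, 9.70 and 9.63 in AsPC1-R, 9.87, 9.92 and 10.00 in BxPC3 and 9.66, 9.58 and 9.67 in BxPC3-R. The BxPC3 arrays lay above all others, and the arrays of the other 3 groups overlapped. In BxPC3-R it fell by 0.30 (SE 0.09; adjusted p = 0.0294 by limma), but this call was lost with single arrays left out: adjusted p was 0.0654 and 0.113 without BxPC3 replicate 2 and 3, and 0.0656, 0.113 and 0.0584 without BxPC3-R replicate 1, 2 and 3. It was also lost with arrays centred on their medians (adjusted p = 0.0787). In AsPC1-R the difference was 0.02 (SE 0.09; 95% interval -0.17 to 0.21; adjusted p = 0.911). The difference between the lines was 0.32 (SE 0.13; adjusted p = 0.0860, or 0.0356 without AsPC1 replicate 3 and 0.125 without BxPC3 replicate 2). AsPC1 lay under BxPC3 by a difference of -0.30 (SE 0.09; adjusted p = 0.0133, but 0.0620 without AsPC1 replicate 1 and 0.0558 without BxPC3 replicate 3; it was 0.0319 without BxPC3 replicate 2).

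SLFN12L and SLFN14 passed none of the 4 comparisons. SLFN12L spanned 6.82 to 7.55 in AsPC1, 6.64 to 7.05 in AsPC1-R, 7.08 to 7.47 in BxPC3 and 7.13 to 7.41 in BxPC3-R. Its difference was -0.30 (SE 0.17; 95% interval -0.67 to 0.06) in AsPC1-R and -0.002 (SE 0.17; 95% interval -0.36 to 0.36) in BxPC3-R. The lowest group was AsPC1-R, whose arrays overlapped those of AsPC1 alone. SLFN14 spanned 4.75 to 5.06 in AsPC1, 4.63 to 4.95 in AsPC1-R, 4.40 to 5.14 in BxPC3 and 4.41 to 4.62 in BxPC3-R, under the median of all values on every array. Its difference was -0.10 (SE 0.16; 95% interval -0.43 to 0.24) in AsPC1-R and -0.25 (SE 0.16; 95% interval -0.59 to 0.08) in BxPC3-R. Without BxPC3 replicate 2, which held its highest value, SLFN14 was called higher in AsPC1 than in BxPC3 (0.36, adjusted p = 0.0424, against 0.16 and 0.408 with it). SLFN12, SLFN12L and SLFN13 are close copies of each other, so their probe sets may share signal, and the platform annotation ties that of SLFN12L to 1 transcript record.

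Counted over the family, 3 of 6 members fell in BxPC3-R and 0 rose, where 11.0% of the genes tested fell, 9.75% rose and 20.8% changed. The members that fell were SLFN5, SLFN11 and SLFN13, and without BxPC3 replicate 2, BxPC3 replicate 3 or any BxPC3-R array they were SLFN5 and SLFN11. Against a null of a 1.5-fold change, 0 of 6 passed in BxPC3-R, where 396 of the 18417 genes did. The estimated falls of SLFN5 and SLFN11, 1.78-fold and 1.94-fold, were larger than 1.5-fold. After adjustment over all genes, it was not established that they exceed that size. Over the other 5 members, the difference between the lines passed for SLFN11 and SLFN12, 2 of 5, both positive, where 25.4% of all genes passed, 14.1% with a positive and 11.3% with a negative difference. With SLFN13 it was 3 without AsPC1 replicate 3. Between the parental lines, SLFN11, SLFN12 and SLFN13 were lower in AsPC1, 3 of 5 where 22.9% of all genes were lower, 27.7% higher and 50.6% differed in either direction.

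The genes on both sides of the cluster were read to compare them with the Schlafen genes. Taken in the RefSeq order, the 5 measured genes on each side were LIG3, FNDC8, NLE1, UNC45B and SLC35G3 before SLFN5 and SNORD7, AP2B1, RASL10B, GAS2L2 and MMP28 after SLFN14. In AsPC1-R 2 of the 10 rose and 0 fell, where 11.6% of all genes rose and 20.3% changed: the DNA ligase gene LIG3 by 0.33 (SE 0.11; adjusted p = 0.0487 by limma) and the clathrin adaptor gene AP2B1 by 0.27 (SE 0.08; adjusted p = 0.0266). The LIG3 call was lost without any AsPC1 or AsPC1-R array, BxPC3 replicate 3 or BxPC3-R replicate 1 or 2 (adjusted p = 0.0536 to 0.188), and the AP2B1 call without AsPC1 replicate 1 or 3 or AsPC1-R replicate 1 or 3 (0.0625 to 0.10). In BxPC3-R 1 fell and 0 rose, where 11.0% of all genes fell and 20.8% changed. It was the matrix metalloproteinase gene MMP28, which fell by 0.58 (SE 0.09; adjusted p = 0.000326, or 0.00163 without BxPC3 replicate 2). The median change of the 10 neighbours was 0.04 in AsPC1-R and 0.06 in BxPC3-R. No neighbour reached a change of 1 (log2) in either derivative, and the genes next to SLFN5 and SLFN14, SLC35G3 and SNORD7, did not pass the test.

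**Figure D4:**
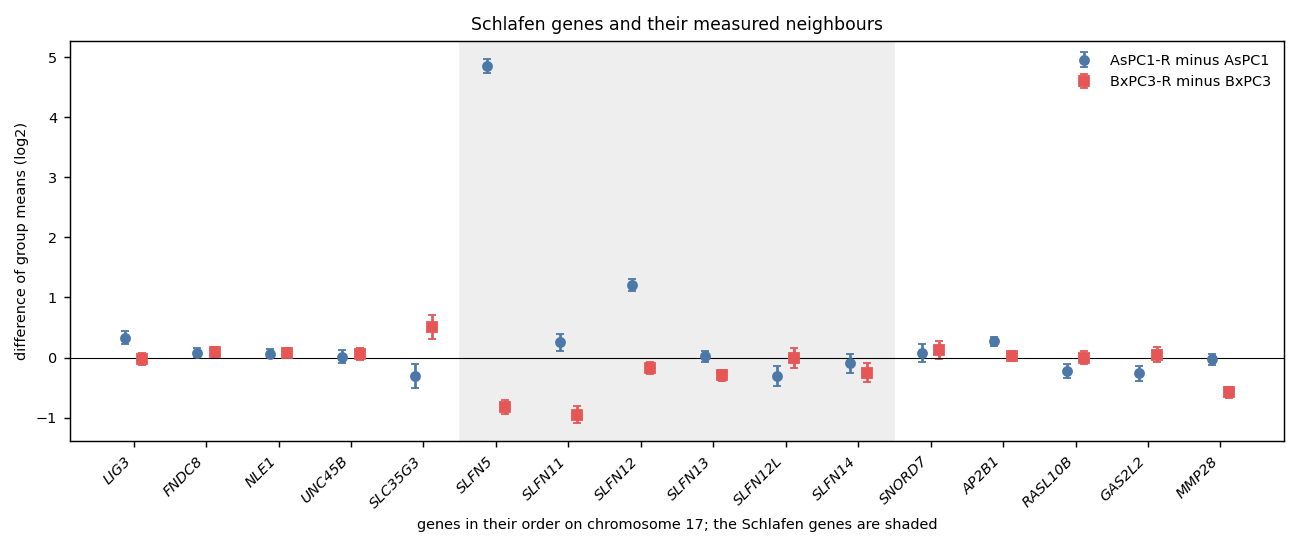
Difference between each derivative and its parental line (log2, with the standard error from limma) for the Schlafen genes (shaded) and 5 measured genes on each side, in their order on chromosome 17. SLFN5 and SLFN12 stand out in AsPC1-R at 4.85 and 1.20, while the neighbours lie between -0.31 and 0.33 there.

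Since interferon induces Schlafen genes, the pathway was read by role. For comparison, 11.6% of all genes rose and 8.64% fell in AsPC1-R, and 9.75% rose and 11.0% fell in BxPC3-R. Of 7 interferon ligand genes, 1 rose in AsPC1-R, IFNB1, by 0.38 (SE 0.10; adjusted p = 0.0180 by limma) from 3.10 to 3.47, levels at the bottom of the scale. That count was 0 without AsPC1-R replicate 2 or 3 (adjusted p = 0.0767 and 0.0801). In BxPC3-R 0 of 7 passed, and 0 had an unadjusted p under 0.05. Of 6 receptor genes, 4 rose and 0 fell in AsPC1-R, or 2 without AsPC1 replicate 2 or AsPC1-R replicate 1. The interferon gamma receptor gene IFNGR1 rose by 0.99 (SE 0.11; adjusted p = 2.48e-05) and the type I receptor gene IFNAR2 by 0.54 (SE 0.08; adjusted p = 0.000274). In BxPC3-R 3 receptor genes fell and 0 rose: IFNGR1 by 0.83 (SE 0.11; adjusted p = 0.000116), IFNGR2 by 0.68 (SE 0.09; adjusted p = 7.43e-05) and IL10RB by 0.59 (SE 0.09; adjusted p = 0.000227). Without BxPC3 replicate 2, 4 receptor genes passed there and 0 ligand genes.

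Among 8 measured genes of kinases and transcription factors, 3 rose in AsPC1-R and 0 fell. They were IRF1 at 0.66 (SE 0.13; adjusted p = 0.00284 by limma), IRF9 at 0.49 (SE 0.09; adjusted p = 0.00161) and the kinase gene JAK1 at 0.31 (SE 0.08; adjusted p = 0.0108, but 0.0538 without AsPC1-R replicate 3). In BxPC3-R 2 fell and 0 rose, IRF1 by 0.62 (SE 0.13; adjusted p = 0.00389) and IRF2 by 0.46 (SE 0.08; adjusted p = 0.000646), and 2 passed without BxPC3 replicate 2. Of 6 feedback inhibitor genes such as SOCS1 and USP18, 0 passed limma's test in either derivative (0 and 2 with an unadjusted p under 0.05 in AsPC1-R and BxPC3-R). The count was 1 without AsPC1 replicate 1 in AsPC1-R, and 1 without BxPC3 replicate 1 or 3 in BxPC3-R.

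Of the 36 effector genes at the end of the pathway, 32 rose and 0 fell in AsPC1-R with a median change of 0.87, and 17 fell and 0 rose in BxPC3-R with a median of -0.29 (16 calls without BxPC3 replicate 2). Over all genes 11.6% rose in AsPC1-R and 11.0% fell in BxPC3-R, with medians of -0.05 and 0.02. The receptor list had a median of 0.29 in AsPC1-R and -0.41 in BxPC3-R, and no test compared the lists. The largest rises in AsPC1-R were those of IFI44L at 2.33 (SE 0.15), SAMD9L at 2.18 (SE 0.08) and IFIT2 at 2.17 (SE 0.12), and the largest falls in BxPC3-R those of IFITM1 at -1.92 (SE 0.10), IFI27 at -1.89 (SE 0.12) and TRIM22 at -1.82 (SE 0.14). IFI44L read 4.73, 4.51 and 4.03 in AsPC1, at the bottom of the scale, so the size and rank of its rise are uncertain. The difference between the lines passed for 33 of the 36 (32 without BxPC3 replicate 2), each of the 33 with the AsPC1-R change above the BxPC3-R change. Over all genes 25.4% passed, 14.1% with a positive difference. The list was known to move in these data when it was written.

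**Figure D5:**
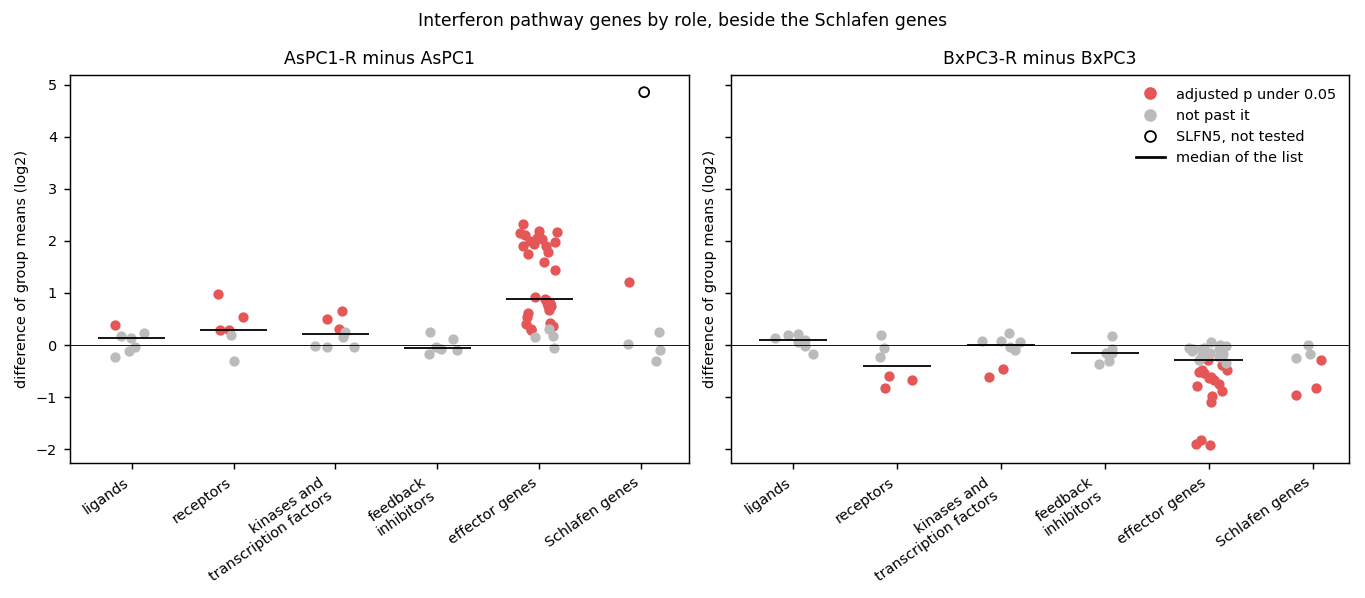
Difference from the parental line (log2) of each measured interferon pathway gene by role, beside the 6 Schlafen genes, in AsPC1-R (left) and BxPC3-R (right); red points passed an adjusted p under 0.05, black lines are list medians and the open circle is SLFN5, which was not tested in AsPC1-R. Effector genes centre on 0.87 in AsPC1-R and -0.29 in BxPC3-R.

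Genes of the replication stress checkpoint, the setting in which SLFN11 acts, were read as well. Of 26 measured, 2 rose and 4 fell in AsPC1-R with a median change of -0.05, and 7 rose and 0 fell in BxPC3-R with a median of 0.15. Over all genes 20.3% changed in AsPC1-R and 20.8% in BxPC3-R, with 9.75% rising in the latter. The largest rise in BxPC3-R was that of CLSPN at 1.19 (SE 0.11; adjusted p = 3.87e-06 by limma), the gene of claspin, which relays the ATR signal to CHK1. The fork protection gene TIMELESS rose in BxPC3-R by 0.72 (SE 0.11; adjusted p = 0.000384) and fell in AsPC1-R by 0.56 (SE 0.11; adjusted p = 0.00286). Its partner TIPIN rose in both derivatives, by 0.88 (SE 0.15; adjusted p = 0.000911) in AsPC1-R and by 0.47 (SE 0.15; adjusted p = 0.0435) in BxPC3-R, and the difference between the lines did not pass (adjusted p = 0.191). The BxPC3-R call of TIPIN was lost without AsPC1-R replicate 1 or 2, any BxPC3 array, or BxPC3-R replicate 2 or 3 (adjusted p = 0.0501 to 0.163). The AsPC1-R count of 6 was 3 without AsPC1-R replicate 1 or 3, BxPC3 replicate 3 or BxPC3-R replicate 2, and the BxPC3-R count of 7 was 4 without BxPC3 replicate 1 and 5 without BxPC3 replicate 2.

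The genes most like SLFN5 over the 12 arrays were IFIH1 (Pearson r = 0.997), NTN4 (0.996), HERC5 (0.995), GPRC5B (0.995) and KATNAL1 (0.995), among 12326 other genes that reached the median of all values in at least 1 group. IFIH1, for example, read 8.66 ± 0.14 in AsPC1, 10.78 ± 0.11 in AsPC1-R, 11.22 ± 0.02 in BxPC3 and 10.75 ± 0.05 in BxPC3-R (SD, n = 3). Most like SLFN11 were IKZF2 (0.996), MAPK13 (0.994), CADPS2 (0.993), ST6GALNAC2 (0.992) and GOLM1 (0.992). Within the family, SLFN12 was nearest to SLFN5 (0.975), SLFN11 had 0.724 with SLFN5 and 0.595 with SLFN12, and SLFN12L had 0.05 with SLFN5. The arrays fall into 4 groups, so these correlations mostly describe 4 group means.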

How the data were processed

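The authors amplified and labelled RNA of 12 cell line samples for Affymetrix arrays. Per the submitters' processing notes, the deposited log2 values were made in Affymetrix Expression Console with RMA, a method that subtracts background, equalises the arrays' distributions and combines probes; the log2 scale was checked from their range. The sources used here give neither versions nor a genome build. Quantile normalization removes array-wide shifts and RMA tends to compress large differences.

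Of 33297 probe sets, the 19460 with 1 gene symbol gave 18417 genes. For the 769 with several, the probe set with the highest mean was used. RefSeq (GRCh38.p14) supplied gene order and upstream sequences. No gene was filtered out. With genes whose highest group mean lay under 6.554 left out, 5 of 6 members remained, without SLFN14.

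Limma 3.58.1 in R 4.3.3 was fitted to all 12 arrays with 4 group means. Tests were two-sided, with p-values adjusted by Benjamini and Hochberg over all genes, and rises, falls and differences are those with an adjusted p under 0.05. The script was tested on simulated data. The members, lists and tests were chosen with earlier results of these data known. Named genes were all members, up to 3 per list and derivative with the largest called change, any gene of the receptor, transcription factor, partner and regulator lists, locus neighbours and the 5 most alike genes. Replicate numbers were not used to pair the samples in the main fit. A result called 0 of 6 or 1 of 5 counts members; SLFN5 is left out wherever AsPC1 arrays enter. Alternatives were a replicate block, other scalings, dim genes left out, other variance models, only the groups compared, probe set means, array weights, each array left out, a 1.5-fold null and a threshold of 0.01 on adjusted p.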

Additional observations from a re-analysis of the deposited data

Results flagged for a closer look

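Each gene here is listed because its difference between the lines, the AsPC1-R change minus the BxPC3-R change (log2), passed limma's test, or, for SLFN5, because the arrays moved in opposite directions. Without BxPC3 replicate 2 the test still passed for each tested gene named here except EIF2AK4.

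In the Schlafen family, the difference was 5.68 for SLFN5, which was not tested because its AsPC1-R change chose it, 1.38 for SLFN12 and 1.21 for SLFN11. SLFN11 lay at the bottom of the scale in AsPC1 and AsPC1-R, so a fall might not be visible there and its value does not show a different response. Among interferon receptor genes it was 1.82 for IFNGR1, 0.97 for IFNGR2, 0.79 for IL10RB, 0.60 for IFNAR2 and 0.51 for IFNAR1. Among interferon transcription factor genes it was 1.28 for IRF1, 0.61 for IRF2 and 0.53 for IRF9. The effector genes had 4.03 for IFI27, 2.64 for TRIM22, 2.59 for IFIH1, 2.51 for IFI44L, 2.41 for SAMD9L, 2.39 for HERC5, 2.23 for IFITM1 and 2.17 for IFIT2. In AsPC1, IFI27, TRIM22 and IFI44L lay in the range of the deleted genes (means 6.251, 4.404 and 4.425), so the sizes of their differences are uncertain.

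Genes listed as possible regulators of SLFN11 differed in both directions, with 1.38 for ETS1, -1.38 for EZH2 and -0.81 for DNMT1. In the checkpoint list the value was -1.27 for TIMELESS and -1.14 for CLSPN. Partner genes had -0.77 for MAP3K20 and 0.36 for EIF2AK4, and the neighbour MMP28 had 0.55. The EIF2AK4 value (adjusted p = 0.0437 by limma) lost its call under 13 of 21 alternatives, among them the replicate block (adjusted p = 0.0621) and the loss of AsPC1 replicate 3, AsPC1-R replicate 1 or 3, any BxPC3 array or any BxPC3-R array (adjusted p = 0.0545 to 0.103).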

How the results depend on the processing

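The counts of members called kept within 1.5 times of their values under the alternatives run, except against a null of a 1.5-fold change. There 0 of 6 passed in BxPC3-R in place of 3, and 1 of 5 in the difference between the lines in place of 2. Over all genes, 396 passed in BxPC3-R in place of 3826, and 933 in the difference between the lines in place of 4685. That null asks for a larger change by construction. With 1 array left out, 1 to 1 member passed in AsPC1-R, 2 to 3 in BxPC3-R, 2 to 3 in the difference between the lines and 2 to 4 between the parental lines. With the replicate block, 1, 3, 2 and 3 members passed, as without it. Deviations of same-numbered arrays correlated between -0.239 and 0.34. With 3 arrays per group this cannot exclude that the numbers pair the samples. Signs turned only for values that had passed no test, and the cause was not tested. In AsPC1-R, SLFN13 was -0.021 after a further quantile normalization and -0.076 to 0.084 with an array left out, and SLFN14 was 0.022 with array weights. In BxPC3-R, SLFN12L was 0.043 after quantile normalization, 0.046 with arrays centred on their medians, 0.076 with array weights and -0.086 to 0.109 with an array left out, and PDE3A was -0.026 to 0.099. With an array left out, SLFN14 spanned -0.046 to 0.323 in the difference between the lines and -0.012 to 0.357 between the parental lines, where SLFN12L spanned -0.316 to 0.046. Array weights raised the genes called in BxPC3-R from 3826 to 6356. The fit on only the groups compared was not run for the difference between the lines, and SLFN14 has no value with dim genes left out.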
